A study of Mus musculus with 8 samples.

Results

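Blockade of both Creb3l2 and XBP1 in the melanotropes of the mouse pituitary was compared with the wild-type (WT) state by RNA-seq of the neuro-intermediate lobe, the thin lobe in which melanotropes are the main hormone-producing cell. The comparison rests on 4 of the 8 libraries of the series, those labelled ACreb3l2/AXBP1 replicate 1 and 2 and WT replicate 1 and 2, and covers all 48526 genes of the deposited count table, of which 15580 had a mean normalized count above 20 and were tested. The other 4 libraries, 2 with ACreb3l2 alone and 2 with AXBP1 alone, enter the same model and are described only where they show how the double transgenic lobes differ. Every library was made from a pool of 5 lobes of C57B6 mice, and per the study's methods the animals were 3-month-old males. ACreb3l2/AXBP1 mice carry both transgenes, ACreb3l2 and AXBP1 mice carry 1 each, and WT mice carry none. Each transgene encodes a dominant-negative AZIP protein, that is the leucine zipper part of Creb3l2 or XBP1 behind an acidic extension in place of the DNA-binding region, driven by the rat POMC promoter, which is active in melanotropes and in the corticotropes of the anterior lobe. The study selected more than 1 line per transgene and shows its results for 1 line, and the labels do not say whether the 2 pools of a group hold littermates, so p-values measure the spread between pools only.

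Creb3l2 and XBP1 are bZIP transcription factors that sit downstream of stress sensing in the endoplasmic reticulum (ER). Creb3l2 is made as a membrane protein that is cleaved in the Golgi to release its DNA-binding part and is known for its targets in ER-to-Golgi transport. XBP1 becomes active when the ER sensor IRE1 splices its mRNA and is known for its targets in protein folding, glycosylation and degradation in the ER. Melanotropes make large amounts of POMC, the precursor of alpha-MSH, and send it through this pathway into secretory granules. Another branch of the same response runs from the kinase PERK to the transcription factor ATF4, whose targets include genes of amino acid supply.

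Library totals ran from 28256086 to 37988912 counts, and the 2 libraries of each group differed by more than sampling noise. WT replicate 2 and ACreb3l2/AXBP1 replicate 2 stood furthest apart. Normalized counts of Pomc were 3460466 and 5180565 in WT but 2766164 and 2049870 in ACreb3l2/AXBP1, and the 10 genes with most counts took 15.8% and 21.3% of the WT libraries and 15.5% and 12.7% of the double transgenic ones. The main counts are therefore given with and without these 2 libraries. The targeted genes did not check the labels, since a count per gene pools reads of a transgene with those of the endogenous gene. Creb3l2 had 28682 and 28195 normalized counts in WT and 21205 and 14044 in the libraries labelled ACreb3l2/AXBP1 (log2 change -0.69, SE 0.18, edgeR adjusted p = 0.0428; not called without WT replicate 2, adjusted p = 0.178, or without ACreb3l2/AXBP1 replicate 2, adjusted p = 0.161). Xbp1 had 11877 and 13436 in WT and 17639 and 12854 in the double transgenic libraries, with overlapping groups (log2 change 0.27, SE 0.14, edgeR adjusted p = 0.227).

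The double blockade lowered more genes than it raised. With edgeR's quasi-likelihood test and a Benjamini-Hochberg adjusted p under 0.05 over all tested genes, 1566 genes were called, which is 10.1% of those tested: 1089 (6.99%) were lower and 477 (3.06%) higher in ACreb3l2/AXBP1 than in WT lobes. The called changes were mostly moderate, with a median log2 change of -0.59 among the lower and 0.56 among the higher genes; 161 genes fell and 70 rose by at least 2-fold, and 19 fell and 8 rose by at least 4-fold. Without WT replicate 2 the calls numbered 297 lower and 58 higher, without ACreb3l2/AXBP1 replicate 2 they numbered 194 lower and 24 higher, and without both 48 lower and 1 higher. A group left with 1 library has no spread of its own, and these fits take the spread from the other groups and assume that the lone library varies like them. The groups did not overlap for 58.3% of all tested genes. Non-overlap held for every called gene, so leaving out a library cannot turn its direction. Of these genes 175 lower and 17 higher genes stayed called whichever of the 4 libraries was left out. Since these lobes are a mixture of cells, fewer cells of a type and less RNA per cell cannot be told apart in any of these values. The split depended on scaling: with library size alone in place of TMM factors, 546 genes were called lower and 1104 higher, as the median log2 change of all tested genes moved from 0.01 to 0.17. The split also moved with limma on log2(FPKM + 1), which called 1000 lower and 107 higher, and on log2(FPKM + 0.1), with 1006 and 114.

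**Figure D1:**
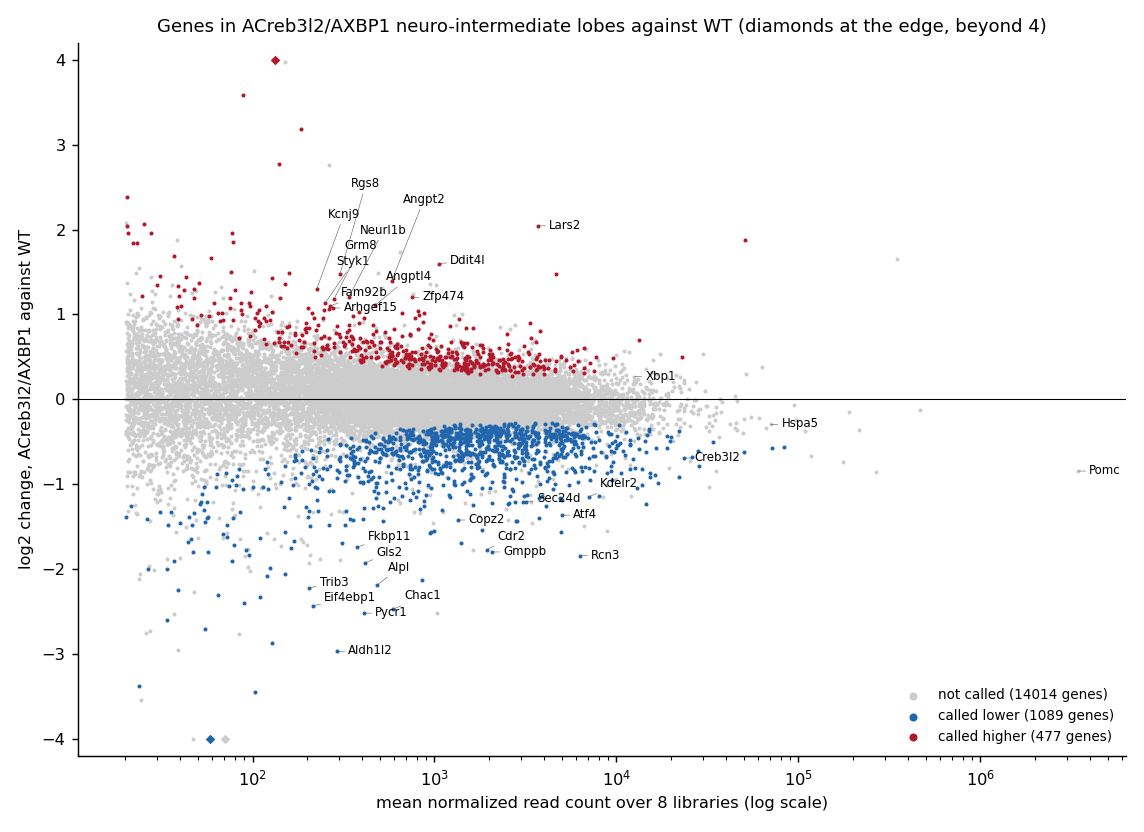
Each point is 1 of the 15580 tested genes, placed by its mean normalized read count over the 8 libraries (x, log scale) and its log2 change in ACreb3l2/AXBP1 against WT lobes (y), and diamonds mark the 3 genes beyond 4 in either direction. The 1089 genes called lower, in blue, reach further into the abundant transcripts than the 477 called higher, in red.

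Called lower genes lay mainly among transcripts abundant in WT. By the mean normalized count over all 8 libraries, the median was 1519 for genes called lower and 783 for those called higher. Tested genes were cut into 5 equal classes by mean FPKM in WT, which also enters the change. Genes were admitted by their mean over all 8 libraries, so those low in WT could pass through the other groups. In the highest class, 16.1% were called lower and 0.834% higher, with a median log2 change of -0.13. In the lowest class 1.41% were called lower and 3.27% higher, with a median of 0.17. Counts are larger in the upper classes, which also makes a change of a given size easier to call. The parts of this, of the cut by WT level and of the filter in the shares and medians were not tested. Of the lower genes 1053 were protein coding and 36 were not, and of the higher genes 449 were protein coding and 28 were not.

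Many genes that act between synthesis of a secretory protein at the ER and its arrival in the Golgi were lower. The 7 lists for this route, which are ER translocation, N-glycosylation, the COPII and COPI coats, cargo receptors, Golgi tethers and SNAREs, and ARF GTPases, held 165 tested genes, of which 95 (57.6%) were called lower and 0 higher, against 6.99% lower among all tested genes, and their median log2 change was -0.42. Without WT replicate 2 there were 48 lower calls among them, without ACreb3l2/AXBP1 replicate 2 there were 35, and without both 11, with medians of -0.37, -0.37 and -0.28 and no higher call in any of these fits. With library size alone the count was 64 lower and 0 higher. Of the 165 genes, 143 had a log2 change below 0. By list, 4 to 10 genes were called lower without WT replicate 2 and 3 to 7 without ACreb3l2/AXBP1 replicate 2. An 8th list of the same route, the p24 cargo proteins, is given apart from these 7 and shifted less.

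At the entrance to the ER, the list of translocation and signal peptidase genes had 16 of 26 tested members called lower, with a median log2 change of -0.39. Sec61a1, the channel subunit of the translocon, had 13372 and 14930 normalized counts in WT and 8777 and 6753 in ACreb3l2/AXBP1 (log2 change -0.87, SE 0.12, edgeR adjusted p = 0.00331). Both receptor subunits of the signal recognition particle fell, Srprb by 1.78-fold from 1714 and 2032 to 1107 and 1002 counts and Srpr by 1.59-fold. The other translocon subunits Sec61b (log2 change -0.66) and Sec61g (-0.42), the translocon-associated protein Ssr4 (-0.65) and the signal peptidase catalytic subunits Sec11a (-0.56) and Sec11c (-0.62) were also called lower. Srp54b, called lower with a log2 change of -0.41, belongs to a set of near-identical genes between which counted reads are uncertain.

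N-linked glycosylation, in which a sugar tree is built on a lipid and moved onto the nascent chain, had 19 of 37 genes called lower (median -0.41). Gmppb, which makes the mannose donor GDP-mannose, was among the 12 called coding genes with the largest falls and a mean normalized count of at least 200. Its counts were 3246 and 3881 in WT and 1269 and 786 in ACreb3l2/AXBP1, a 3.47-fold fall (SE of the log2 change 0.20, edgeR adjusted p = 0.00337). Gmppb overlaps Rnf123 on the other strand, and since no source used here states whether counting used strand, shared reads cannot be told apart. The same limit holds for Srpr (Foxred1), Kdelr1 (Grin2d), Arf4 (Pde12), Creb3 (Gba2), Shmt2 (Ndufa4l2), Aldh1l2 (D10Wsu102e), Aldoa (Fam57b), Nefm (Nefl), Angpt2 (Mcph1), Gls2 (Spryd4), Fkbp14 (Plekha8), Txndc5 (Bmp6) and Pgm3 (Dop1a). It also holds for Bet1l, Bysl, Copg2, Dusp1, Galnt5, Gapdh, Gnl3, Golga2, Gorasp2, Kdelr3, Krtcap2, Manf, Mcm7, Nop56, Pcsk2, Pdia6, Ppp1r15a, Psph, Shmt1, Syvn1, Tmem258, Tsr1 and Txndc11, which have annotated genes on the other strand, while overlaps with predicted genes and small RNAs are not listed. Mogs, the glucosidase that takes off the first glucose, went from 3347 and 4234 to 1799 and 1419 counts (log2 change -1.24). Of the oligosaccharyltransferase complex, Ostc fell by 1.9-fold (5472 and 6261 against 3363 and 2825 counts) and the subunits Stt3a (-0.62), Dad1 (-0.79), Krtcap2 (-0.75), Tmem258 (-0.55) and Rpn1 (-0.61) were called lower on the log2 scale. The hexosamine enzymes Gfpt1 (-0.67), Pgm3 (-0.67) and Uap1 (-0.72), which supply its nucleotide sugar, fell in the same comparison.

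Vesicle coats showed the deepest list medians of the route. The COPII coat, which buds vesicles from the ER, had 13 of 18 genes called lower with a median of -0.54, and the COPI coat, which returns vesicles from the Golgi, had 8 of 9 with a median of -0.68. Sec24d (ENSMUSG00000039234, mm10 chromosome 3, 123267455 to 123365641), a cargo-binding COPII subunit, had 4196 and 5008 normalized counts in WT and 2183 and 1809 in ACreb3l2/AXBP1 (log2 change -1.21, SE 0.11, edgeR adjusted p = 0.000656). The groups were well apart, and the call held whichever of the 4 libraries was left out. Sar1a, the GTPase that starts COPII assembly, went from 16863 and 17285 to 10256 and 9224 counts (log2 change -0.81). The coat subunits Sec31a (-0.87), Sec13 (-0.85), Sec24a (-0.80) and Sec23b (-0.56), the partner Sec23ip (-0.78) and the scaffold Sec16a (-0.73) fell as well. Sec24c (-0.30) and Sec24b (-0.09), the other cargo-binding subunits of the family, did not pass the test.

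Copz2 (ENSMUSG00000018672, mm10 chromosome 11, 96849870 to 96861203), an alternative zeta subunit of COPI, fell 2.68-fold, from 1837 and 2465 to 824 and 783 counts (SE of the log2 change 0.13, edgeR adjusted p = 0.000656), whereas its paralog Copz1 had a log2 change of -0.49. Copb2 had 19398 and 21500 counts in WT and 12294 and 10141 in the double transgenic lobes. Copg1 had a log2 change of -0.82 and was called lower, while Copg2, at 0.13, did not pass the test and was the 1 member of the list not called. Among the receptors that sort cargo or return ER residents, 8 of 18 were called lower (median -0.39). Kdelr2, a receptor for the KDEL tail of ER chaperones, went from 9387 and 11178 to 5036 and 4267 counts (log2 change -1.14, SE 0.11, edgeR adjusted p = 0.000708), and Kdelr1 (-0.68) and Kdelr3 (-0.78) fell with it. The cargo receptor Surf4 fell 2.07-fold, from 16514 and 20026 to 9858 and 7830 counts, though it overlaps Surf2 on the other strand. Of the 9 p24 cargo proteins 3 were lower (Tmed9, Tmed3 and Tmed2), with a median of -0.14, of 0.02 with library size alone, and with 4 members above 0. Without WT replicate 2 the count was 1 and without ACreb3l2/AXBP1 replicate 2 it was 0.

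At the Golgi, 22 of 36 tethers and SNAREs were called lower (median -0.39). Cog6 of the COG tethering complex had 4560 and 4500 counts in WT and 2679 and 2476 in ACreb3l2/AXBP1 (log2 change -0.81, SE 0.08, edgeR adjusted p = 0.000828). The ER-Golgi SNAREs Sec22b (-0.85), Stx5a (-0.76), Bet1l (-0.88) and Gosr2 (-0.49), the golgins Golga3 (-0.85) and Golga2 (-0.57), and the stacking protein Gorasp2 (-0.84) fell on the log2 scale. Of the ARF GTPases and their regulators, which load COPI, 9 of 21 were lower (median -0.33). Arfgap1, which turns ARF1 off on COPI vesicles, went from 4139 and 5115 to 2323 and 1923 counts and Arf4 from 5565 and 6097 to 3496 and 3553.

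Rcn3 and Cdr2 were also among the 12 largest falls. Rcn3, a calcium-binding protein of the ER lumen, had 9032 and 12224 normalized counts in WT and 3163 and 2778 in the double transgenic lobes, a 3.58-fold fall that was also 1 of the 10 largest of called coding genes in mean FPKM, from 208 ± 37.8 to 57.2 ± 0.468 (SD, n = 2). Cdr2 had 3325 and 3289 against 1006 and 935 counts (log2 change -1.77, SE 0.10, edgeR adjusted p = 0.000165). Fkbp11, a prolyl isomerase of the ER, fell 3.33-fold, from 584 and 660 to 238 and 136.

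**Figure D2:**
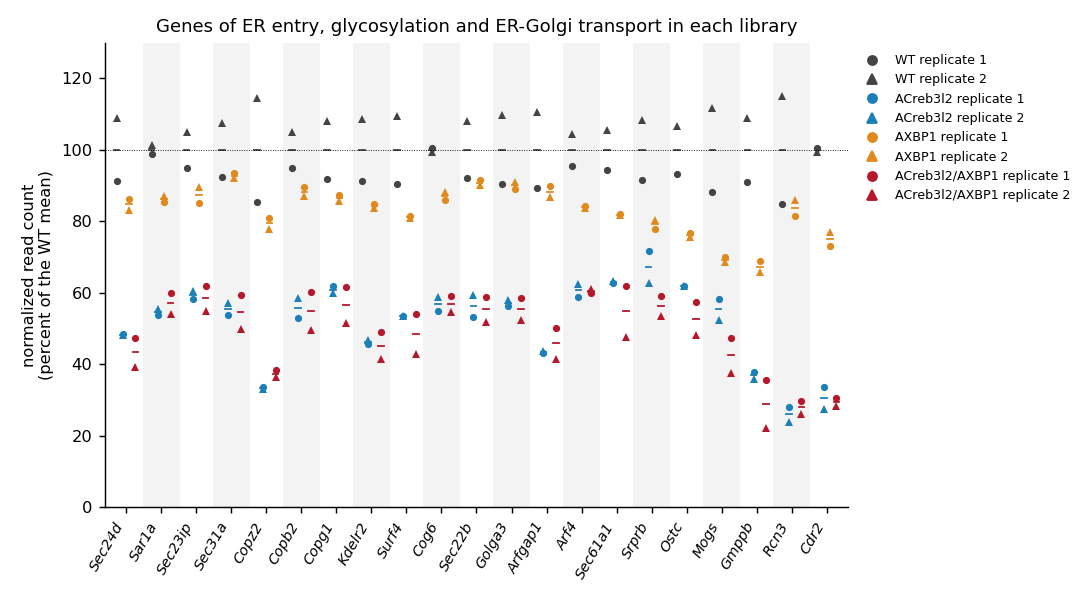
The normalized read count of 21 genes of ER entry, glycosylation and ER-Golgi transport is drawn for each library as a percentage of the WT mean of that gene, with circles for replicate 1, triangles for replicate 2 and short lines for group means. Both ACreb3l2/AXBP1 libraries lie below both WT libraries for every gene shown, as they do for every gene called lower. Both ACreb3l2 libraries also lie below both WT libraries for every gene shown. The AXBP1 libraries lie above both double transgenic ones for every gene, and reach into the WT range for Sec31a, Golga3, Arfgap1 and Rcn3.

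Promoters of these genes were read for the sequences that the stress factors are known to bind. Of the tested genes 11171 (71.7%) had at least 1 promoter window in the RefSeq table of build GRCm38.p6, which runs from 250 bases before to 50 after a gene start. Both strands were searched, a gene was counted once if any of its windows matched, and a match to GACGTG includes those within TGACGTGG. TGACGTGG, the core of the unfolded protein response element, was found for 37 of 847 genes called lower (4.37%), for 3 of 343 called higher (0.875%) and for 77 of 9981 not called (0.771%), while 0.676% of all 32851 windows held it. Among the called lower members of the 7 transport lists it was found for 10 of 78 (12.8%). No share was taken for members of these lists that were not called. The shorter GACGTG was found for 22% of lower genes, 7.29% of higher genes, 9.7% of those not called and 42.3% of the lower transport members, with 6.38% of all windows. In the class of genes with the highest FPKM in WT, GACGTG was found for 24.7% of lower genes and 11.3% of those not called, and TGACGTGG for 3.74% and 0.804%. The cyclic AMP response element TGACGTCA was found for 4.49% of lower genes and 3.62% of those not called, with 1.79% of all windows. These are matches of letters in a window and not measured binding.

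The windows of Sec24d and Copb2, genes called lower, are shown because each holds TGACGTGG, and that of Hspa5, which was not called, because it holds the classical ER stress element. Capitals mark matches to TGACGTGG, GACGTG or the ER stress element, which is CCAAT and CCACG with any 9 bases between, on either strand.
Sec24d, chr3:123267246-123267545, plus strand: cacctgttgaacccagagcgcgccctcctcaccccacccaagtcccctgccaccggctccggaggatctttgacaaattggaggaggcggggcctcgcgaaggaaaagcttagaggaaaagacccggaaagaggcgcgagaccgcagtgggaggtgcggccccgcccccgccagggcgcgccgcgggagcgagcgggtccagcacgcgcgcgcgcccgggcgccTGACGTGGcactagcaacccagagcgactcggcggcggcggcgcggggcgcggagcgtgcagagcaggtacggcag
Copb2, chr9:98563481-98563780, plus strand: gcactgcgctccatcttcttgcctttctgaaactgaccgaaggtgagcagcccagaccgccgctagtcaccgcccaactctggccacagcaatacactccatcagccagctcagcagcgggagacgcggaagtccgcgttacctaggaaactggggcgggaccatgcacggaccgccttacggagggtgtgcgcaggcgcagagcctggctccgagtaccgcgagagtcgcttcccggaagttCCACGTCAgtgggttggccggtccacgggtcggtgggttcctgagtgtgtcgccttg
Hspa5, chr2:34771840-34772139, plus strand: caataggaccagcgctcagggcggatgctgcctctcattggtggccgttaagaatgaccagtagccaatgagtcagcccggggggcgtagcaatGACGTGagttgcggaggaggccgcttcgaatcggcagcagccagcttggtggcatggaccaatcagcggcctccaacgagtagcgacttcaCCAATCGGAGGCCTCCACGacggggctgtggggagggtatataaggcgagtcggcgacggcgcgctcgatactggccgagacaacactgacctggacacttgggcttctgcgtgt
The match began at position -26 in Sec24d and -7 in Copb2, counted with no position 0 from the RefSeq gene start, which can differ from the start of the counted gene. The ER stress element matched in 0.354% of lower genes and 0.13% of those not called, and its second form, ATTGG and CCACG with 1 base between, in 0.354% and 0.0501%, with 0.119% and 0.0365% of all windows.

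Protein folding and degradation in the ER were also lower in part, against 6.99% lower calls among all genes. Of 24 chaperones and cochaperones 8 were called lower (median -0.36), of 19 members of the protein disulfide isomerase family 5 (median -0.30) and of 29 genes of ER-associated degradation 9 (median -0.27), with 0 higher calls in these lists. In the same order the lower calls numbered 5, 2 and 2 without WT replicate 2, 4, 1 and 2 without ACreb3l2/AXBP1 replicate 2, and 0 in each list without both. Hspa5, the main Hsp70 chaperone of the ER, had 72518 and 82287 normalized counts in WT and 72174 and 54025 in ACreb3l2/AXBP1, and did not pass the test (log2 change -0.29, SE 0.14, edgeR adjusted p = 0.202). ACreb3l2/AXBP1 replicate 1 lay close to WT replicate 1 and replicate 2 well below both.

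The cochaperones Dnajc25 (570 and 575 against 307 and 329 counts) and Dnajb9 (3424 and 3600 against 2485 and 2357) fell, although Dnajc25 overlaps Gm20503 on its own strand, as did the fucosyltransferase Pofut2 (log2 change -0.81), the isomerase Fkbp14 (-0.63) and the secreted stress protein Manf (-0.64). P4hb, the founding protein disulfide isomerase, went from 33387 and 39931 to 23681 and 18938 counts (log2 change -0.78, SE 0.13, edgeR adjusted p = 0.00725), and Txndc5 (-0.67), Pdia5 (-0.79) and Txndc11 (-0.59) fell with it, while Pdia4 (-0.34) and Pdia6 (-0.41) did not pass. In the degradation list the lower genes included Vimp (-0.65), Herpud1 (-0.56), the ubiquitin ligase Syvn1 (-0.73) and the lectins Edem2 (-0.52) and Edem3 (-0.38), all on the log2 scale.

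The PERK and ATF4 branch was lower in most of its members. Of its 16 genes 11 were called lower and 0 higher, with a median log2 change of -0.81, beside 6.99% lower and 3.06% higher among all genes. The list had 6 calls without WT replicate 2, 5 without ACreb3l2/AXBP1 replicate 2, and 2 without both. Atf4 (ENSMUSG00000042406, mm10 chromosome 15, 80255184 to 80257541) had 7729 and 8435 normalized counts in WT and 3466 and 2820 in ACreb3l2/AXBP1 (log2 change -1.36, SE 0.11, edgeR adjusted p = 0.000364). Its call held whichever of the 4 libraries was left out. Eif2ak3, which encodes PERK itself, fell from 2802 and 3107 to 1948 and 1736 counts. Ddit3, which encodes CHOP, fell from 1085 and 1224 to 617 and 684, although it overlaps Mars on the other strand.

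Known targets of this branch gave some of the largest changes of the comparison. Chac1, a glutathione-degrading enzyme, had 1091 and 1459 counts in WT and 275 and 186 in ACreb3l2/AXBP1, a 5.54-fold fall (SE of the log2 change 0.26, edgeR adjusted p = 0.00281). Trib3, a pseudokinase, fell 4.66-fold, from 386 and 477 to 99 and 86. Eif4ebp1, which encodes the translation inhibitor 4E-BP1, fell 5.38-fold from 309 and 676 to 104 and 79, with WT libraries far apart. Its log2 change was -2.43, -1.76 without WT replicate 2, and the call was lost without ACreb3l2/AXBP1 replicate 2 (edgeR adjusted p = 0.168). Ppp1r15a, the phosphatase subunit that reverses PERK signalling, and Sesn2 had log2 changes of -0.92 and -0.87 and were called lower, while Atf3 (-1.10), Stc2 (-0.62), Nupr1 (-0.35) and Ddit4 (0.30) did not pass the test.

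Of the 13 sensors and transcription factors of the unfolded protein response, 8 were called lower (median -0.54), beside 6.99% among all genes, and 4 were called in each of the fits without WT replicate 2 and without ACreb3l2/AXBP1 replicate 2. Besides Atf4, Ddit3, Eif2ak3 and Creb3l2 these were Ern1, the gene of IRE1 (log2 change -0.54), Atf6 (5264 and 5273 against 4487 and 4167 counts, log2 change -0.28, edgeR adjusted p = 0.0474), and the Creb3l2 relatives Creb3 (-0.74) and Creb3l1 (-1.56). Creb3l1 was a low transcript, with 175 and 344 counts in WT and 107 and 69 in the double transgenic lobes. Atf6 and Creb3l2 kept the call in 1 of 4 fits with a library left out.

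**Figure D3:**
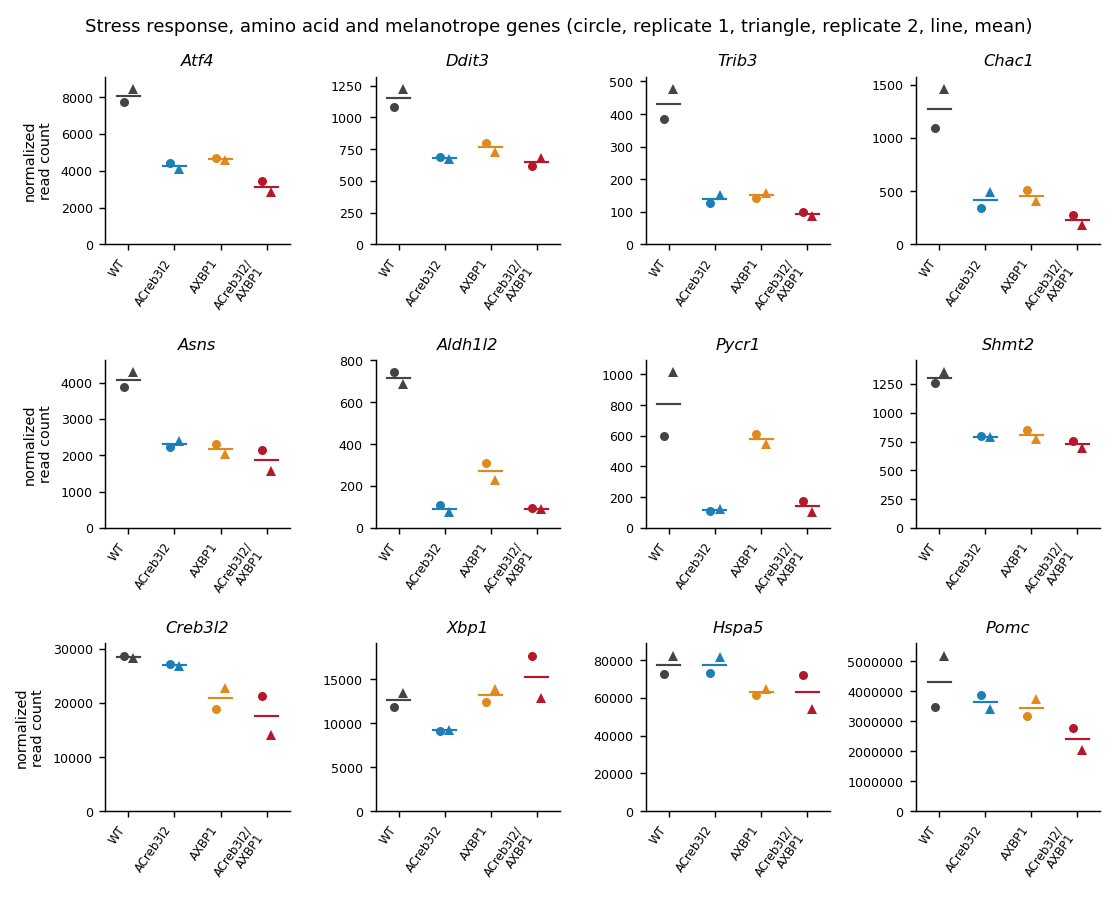
Normalized read counts of 12 genes are drawn for each library by group (circles, replicate 1; triangles, replicate 2; lines, group means; axes start at 0). Atf4, Ddit3, Trib3, Chac1, Asns, Aldh1l2, Pycr1 and Shmt2 have both ACreb3l2/AXBP1 libraries below both WT libraries, as every gene called lower does. The 2 groups overlap or nearly meet for Xbp1 and Hspa5.

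Parts of amino acid supply were lower, beside 6.99% lower and 3.06% higher among all genes. The list of serine, folate and proline synthesis had 10 of 22 genes called lower (median -0.53), with 9 lower calls without WT replicate 2, 5 without ACreb3l2/AXBP1 replicate 2 and 3 without both. Aldh1l2 (ENSMUSG00000020256, mm10 chromosome 10, 83487450 to 83534140), a mitochondrial folate enzyme, had the largest fall of all called coding genes with a mean normalized count of at least 200. Its counts were 742 and 686 in WT and 94 and 89 in ACreb3l2/AXBP1, a 7.81-fold fall (SE of the log2 change 0.20, edgeR adjusted p = 0.000172). Pycr1, which makes proline in mitochondria, fell 5.72-fold from 595 and 1012 to 176 and 106, and Aldh18a1, the enzyme before it, from 6636 and 9576 to 3198 and 2308.

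The mitochondrial folate enzymes Mthfd2 (log2 change -1.70), Shmt2 (-0.85) and Mthfd1l (-0.80), the serine enzymes Psat1 (-0.70) and Psph (-0.63) and asparagine synthetase, Asns, were lower as well. Asns had 3878 and 4281 counts in WT and 2153 and 1559 in ACreb3l2/AXBP1. Phgdh, the first serine enzyme, had a log2 change of -0.58 and did not pass, and the cytosolic folate enzyme Shmt1, at 0.50, did not either. Of the amino acid transporters 6 of 25 were called lower, beside the same 6.99%, among them the cationic transporter Slc7a1 (-1.16) and the neutral transporters Slc38a1 (-0.84) and Slc3a2 (-0.62), and Slc6a15 (0.75) was called higher, beside 3.06%, with a list median of -0.12. The transporters had 1 lower and 0 higher calls without WT replicate 2, and without ACreb3l2/AXBP1 replicate 2 they had 2 and 0. Glutaminase 2, Gls2, fell 3.79-fold (585 and 870 against 245 and 139 counts). Alpl, alkaline phosphatase, fell 4.56-fold, with 652 and 1535 counts in WT and 253 and 225 in ACreb3l2/AXBP1. Gls2 and Alpl kept the call in 2 of these 4 fits, and the log2 change of Alpl went from -2.19 to -1.45 without WT replicate 2.

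The promoters of the ATF4 and amino acid genes were read in the same way. TGATGNAA, the composite element that ATF4 binds with C/EBP partners, was found for 10 of 30 called lower members of the ATF4, amino acid synthesis, amino acid transporter and tRNA synthetase lists (33.3%), for 2 of 78 lower members of the transport lists (2.56%) and for 2.56% of genes not called, with 3.97% of all windows. Over all genes called lower its share was 4.37%, and over all called higher 3.21%. GACGTG was found for 4 of these 30 (13.3%). No share of either sequence was taken for members of these lists that were not called. The windows of Asns, Pycr1, Chac1 and Trib3 are shown because all hold a match, which is in capitals.
Asns, chr6:7693160-7693459, minus strand: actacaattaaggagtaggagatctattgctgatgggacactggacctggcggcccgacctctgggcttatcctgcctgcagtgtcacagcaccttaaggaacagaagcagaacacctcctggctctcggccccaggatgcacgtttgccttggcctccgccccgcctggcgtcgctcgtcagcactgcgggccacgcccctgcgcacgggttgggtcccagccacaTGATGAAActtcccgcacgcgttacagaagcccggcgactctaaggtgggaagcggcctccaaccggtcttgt
Pycr1, chr11:120643699-120643998, minus strand: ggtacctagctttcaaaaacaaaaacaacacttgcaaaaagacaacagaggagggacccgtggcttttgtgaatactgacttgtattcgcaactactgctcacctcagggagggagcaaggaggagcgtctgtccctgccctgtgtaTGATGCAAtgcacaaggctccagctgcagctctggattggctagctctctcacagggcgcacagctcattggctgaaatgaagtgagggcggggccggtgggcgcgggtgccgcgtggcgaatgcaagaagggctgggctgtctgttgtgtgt
Chac1, chr2:119350992-119351291, plus strand: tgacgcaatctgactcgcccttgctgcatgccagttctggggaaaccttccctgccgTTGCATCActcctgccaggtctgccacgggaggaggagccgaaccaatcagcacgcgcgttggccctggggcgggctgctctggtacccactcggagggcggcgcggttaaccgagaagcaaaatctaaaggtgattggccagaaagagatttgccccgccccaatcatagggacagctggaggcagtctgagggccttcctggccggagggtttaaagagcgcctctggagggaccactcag
Trib3, chr2:152344011-152344310, minus strand: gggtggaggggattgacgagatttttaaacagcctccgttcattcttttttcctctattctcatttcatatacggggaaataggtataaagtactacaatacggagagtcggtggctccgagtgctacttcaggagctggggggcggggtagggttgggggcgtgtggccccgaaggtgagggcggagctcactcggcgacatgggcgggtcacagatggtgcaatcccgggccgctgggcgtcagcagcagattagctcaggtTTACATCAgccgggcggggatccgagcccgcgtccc
Each window reads 5′ to 3′ on the strand of its gene, and the match began at position -23 in Asns, -103 in Pycr1, -193 in Chac1 and 15 in Trib3.

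Genes of translation were examined beside those of amino acid supply. Of 42 aminoacyl tRNA synthetases 12 were lower and 1 higher, with a median log2 change of -0.19. The lower ones included Eprs (log2 change -1.24), Tars (3783 and 4888 against 2342 and 2070 counts), Gars (-0.74) and Sars (-0.80), and the higher one was the mitochondrial Lars2, whose values stand with the other higher genes. Of 69 translation factors 12 were lower (median -0.14), of 62 mitochondrial ribosomal proteins 5 (median -0.13), and of 77 cytosolic ribosomal proteins 4 (median -0.15), the last share being 5.19% beside 6.99% of all genes. With library size alone the medians of these 3 lists were 0.01, 0.03 and 0.02, so that the side of 0 on which they lie changed with the scaling. The median of all tested genes moved too, from 0.01 to 0.17, and lay above those of the 3 lists with either scaling. Without WT replicate 2 the lower calls were 4 for the synthetases, 1 for translation factors, 1 for mitochondrial and 0 for cytosolic ribosomal proteins, and without ACreb3l2/AXBP1 replicate 2 they were 3, 0, 1 and 0, with no higher call in these fits.

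Rplp1 and Rplp0, the stalk proteins of the ribosome, were among the 10 largest falls in mean FPKM of called coding genes, at 1440 ± 2.32 in WT and 981 ± 44.8 in ACreb3l2/AXBP1 for Rplp1 (SD, n = 2), though ribosomal protein genes share reads with processed pseudogenes and their counts are uncertain, and both calls held in 2 of 4 fits with a library left out. Beside 6.99% of all genes, ribosome biogenesis had 14 of 49 genes lower (median -0.26), and 2 without WT replicate 2 or without ACreb3l2/AXBP1 replicate 2. Tsr1, a maturation factor of the small subunit, fell from 3681 and 3894 to 2150 and 1802 counts, and Gnl3 (-0.73), Nop56 (-0.65) and Bysl (-0.69) fell on the log2 scale.

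Other metabolic and housekeeping lists ran from glycolysis, above the 6.99% of all genes, to lists with no call. Glycolysis had 7 of 24 genes lower (median -0.24), led by the lactate transporter Slc16a1 (3371 and 3249 against 1792 and 1611 counts) and hexokinase Hk2 (-1.16). The nuclear-encoded respiratory chain had 9 of 79 lower (median -0.17), lysosomal genes 4 of 30 (among them Gaa, Naglu and Neu1; -0.11), cholesterol synthesis 2 of 25 (Msmo1 and Ebp; -0.06), the vacuolar ATPase 1 of 18 (Atp6v0a2; -0.15) and Galnt O-glycosylation enzymes 2 of 19 (Galnt3 and Galnt5; -0.09), with 0 higher calls in each. Without WT replicate 2, or without ACreb3l2/AXBP1 replicate 2, 1 glycolysis gene was called lower and 0 genes of the other 5 lists, while the cholesterol list had 1 higher call without WT replicate 2. Proteasome subunits had 0 of 31 called (median -0.16) and cytosolic chaperones 0 of 25 (median -0.05). Interferon-stimulated genes had 1 lower (Isg20, -0.84) and 1 higher (Ifih1, 0.43) of 30 (median 0.08), and cell cycle genes 0 lower and 1 higher (Mcm7, 0.47) of 18 (median 0.19). Of all genes 6.99% were lower and 3.06% higher, and 0 genes of either list were called without WT replicate 2 or without ACreb3l2/AXBP1 replicate 2. With library size alone the medians of the cholesterol, lysosomal, vacuolar ATPase, cytosolic chaperone, Galnt, p24 and amino acid transporter lists lay above 0, between 0.01 and 0.11. The median of all tested genes was 0.17 with that scaling.

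The hormone and its granules were examined next. Pomc was lower in the double transgenic libraries at 71908 and 59960 FPKM against 97375 and 141230 in WT, but did not pass the test (log2 change -0.84, SE 0.25, edgeR adjusted p = 0.0614). Without both outlying libraries its log2 change was -0.32. Over 16 fits of the data it ran from -1.11 to -0.32, and 6 of them called Pomc. Beside 6.99% lower among all genes, of the 9 genes of POMC processing 1 was called lower (median -0.27), the amidating enzyme Pam, from 86460 and 84357 to 65286 and 49455 counts. The prohormone convertases Pcsk1 (-0.94, edgeR adjusted p = 0.0593) and Pcsk2 (-0.66, adjusted p = 0.162) did not pass. Of 7 granins 1 was called lower, Scg2, which went from 97027 and 100664 to 74035 and 59537 (list median -0.31). Pcsk1 was called lower without ACreb3l2/AXBP1 replicate 2 (adjusted p = 0.0491). Neither Pam nor Scg2 was called without WT replicate 2 or without ACreb3l2/AXBP1 replicate 2.

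Granule membrane and exocytosis genes had 6 lower and 2 higher calls among 37 (median -0.20), beside 6.99% lower and 3.06% higher among all genes. Without ACreb3l2/AXBP1 replicate 2 there were 0 calls in this list, and without WT replicate 2 there were 2 lower and 0 higher. Syt4, a synaptotagmin of dense-core granules, fell from 24958 and 21617 to 12650 and 10859 counts, and the SNARE Vamp2 (-0.58), Rab3d (-0.92) and the priming factor Cadps (-0.60) fell on the log2 scale, whereas Cplx2 (0.43) and Unc13b (0.27) rose. Among the 14 lineage factors (median -0.01), Tbx19, the Pomc-activating factor also called Tpit, had 21336 and 23105 counts in WT and 14474 and 9604 in ACreb3l2/AXBP1 (log2 change -0.88, SE 0.19, edgeR adjusted p = 0.0245). It and Lhx3 (-0.48) were called lower; Tbx19 was called in 1 and Lhx3 in 2 of these 4 fits. Pax7, the selector of melanotrope identity, was at -0.08 and did not pass.

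The median log2 change of receptors and signalling genes of melanotropes was 0.18. It was 0.05 without WT replicate 2 and 0.05 without ACreb3l2/AXBP1 replicate 2. Of these 29 genes 0 were called lower and 3 higher, beside 6.99% lower and 3.06% higher among all genes. The higher ones were the nociceptin receptor Oprl1, the adenylyl cyclase Adcy5 (0.36) and the somatostatin receptor Sstr1 (0.72), with 1 higher call, Oprl1, in each of the fits without WT replicate 2 and without ACreb3l2/AXBP1 replicate 2. Calcium channel subunits had 0 calls among 15 (median 0.06). Immediate early genes had a low median (-0.63) but a wide spread between libraries, with 2 of 20 called lower, Jund and Arc, and 0 in each of these fits. Dusp1, for example, had 7362 and 4812 counts in WT and 3557 and 897 in ACreb3l2/AXBP1, and did not pass the test (edgeR adjusted p = 0.289).

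Among called coding genes, the largest falls in mean FPKM besides Rcn3, the stalk proteins, P4hb, Pam and Scg2 were in the glycolytic enzyme Aldoa (773 ± 57.3 in WT and 530 ± 44.2 in ACreb3l2/AXBP1), Maged1 (577 ± 42.8 and 370 ± 10.9), Wbp5 (360 ± 12.6 and 241 ± 0.106) and the kinase Pak3 (237 ± 9.25 and 107 ± 33.6, FPKM, SD, n = 2 each). The log2 changes of these 4 genes were -0.50, -0.62, -0.57 and -0.92. Wbp5 and Pak3 kept the call in 3 of 4 fits with a library left out, and Aldoa and Maged1 in 2, both being lost without WT replicate 2 and without ACreb3l2/AXBP1 replicate 2. Gapdh, often used as a reference gene, was also called lower, from 12184 and 15701 to 10061 and 7724 counts, with the limit that it has many processed pseudogenes.

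With TMM scaling, genes called higher in the double transgenic lobes were fewer than those called lower, an order that library size alone turned round. By the fold rule, 12 called coding genes with a mean normalized count of at least 200 were named. Rgs8, which speeds the shut-off of G proteins, rose 2.79-fold, from 151 and 174 to 403 and 503 normalized counts (SE of the log2 change 0.19, edgeR adjusted p = 0.00253). Kcnj9, a subunit of G-protein-gated potassium channels, rose 2.47-fold, from 118 and 130 to 292 and 320, and Grm8, a glutamate receptor, rose 2.27-fold from 210 and 158 to 402 and 433. These and Zfp474 (501 and 426 against 929 and 1204 counts) were called whichever of the 4 libraries was left out.

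Oprl1 was a low transcript, with 42 and 26 counts in WT and 122 and 146 in ACreb3l2/AXBP1, and its 3.9-fold rise was also called in all 4 of these fits. Ddit4l, an inhibitor of mTOR signalling, rose from 717 and 374 to 1345 and 1970, and the vessel ligand Angpt2 from 272 and 321 to 859 and 694. Neurl1b (2.31-fold), Styk1 (2.2), Angptl4 (2.16), Fam92b (2.14) and Arhgef15 (2.11) complete the 12 together with Lars2. Angpt2 and Neurl1b kept the call in 3 of 4 fits with a library left out, Ddit4l, Styk1 and Arhgef15 in 2, and Angptl4 and Fam92b in 1. Lars2, the mitochondrial leucyl tRNA synthetase, rose 4.12-fold, from 1990 and 1050 to 6038 and 6516 counts (SE of the log2 change 0.38, edgeR adjusted p = 0.0338), and kept the call in 1 of these fits. The noncoding Gm42418, chosen after its values were seen because it was the most abundant gene called higher, had 24147 and 25692 counts in WT and 76190 and 106505 in ACreb3l2/AXBP1, and it overlaps AY036118 on the other strand. Lars2 and Gm42418 rose in the same comparison, and whether reads of ribosomal RNA add to either count was not tested.

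**Figure D4:**
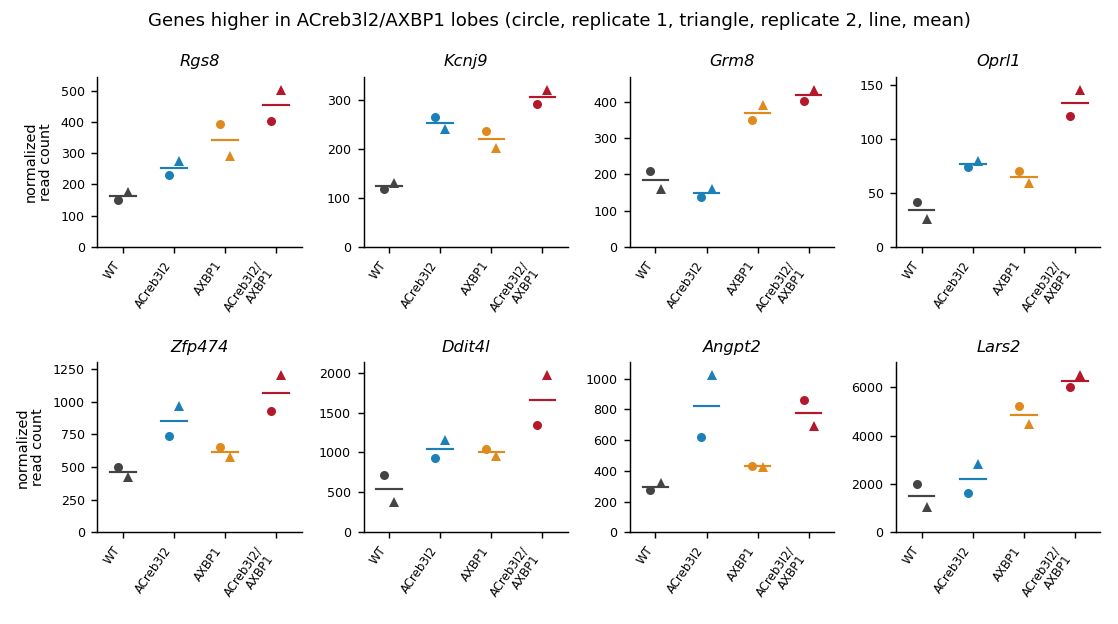
Normalized read counts of 8 genes called higher in ACreb3l2/AXBP1 than in WT lobes are drawn for each library by group (circles, replicate 1; triangles, replicate 2; lines, group means; axes start at 0). Both double transgenic libraries lie above both WT libraries in every panel, as they do for every gene called higher. Angpt2 is high beside ACreb3l2 while Grm8 and Lars2 are high beside AXBP1.

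The 10 largest rises in mean FPKM of called coding genes were small in fold terms besides Lars2. They included Txnip, a glucose-responsive arrestin (96.4 ± 0.53 in WT and 156 ± 59.3 in ACreb3l2/AXBP1), the adhesion molecule Alcam (156 ± 14.6 and 211 ± 6.55), Mettl7a1 (112 ± 14 and 157 ± 29) and Id4 (64.1 ± 6.63 and 85.2 ± 11.8, FPKM, SD, n = 2 each). Anp32a, Cetn2, Sstr1 and the histone genes Hist1h4n and Hist1h2bb were the others, with log2 changes of 0.37, 0.42, 0.72, 0.64 and 0.44. The histone genes belong to a family of near-identical copies, and their counts are uncertain. Of these 10 genes, Alcam, Mettl7a1, Id4 and Anp32a kept the call in 2 of 4 fits with a library left out, Txnip, Cetn2, Sstr1, Hist1h4n and Lars2 in 1, and Hist1h2bb in 0.

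Markers of the cells in the lobe were set beside these changes, where 6.99% of all genes were called lower and 3.06% higher. Melanotrope markers were abundant in every library, with Pomc the leading transcript, so the labelled cell type was present, and 1 of 6 tested markers was called lower, Tbx19 (median -0.43; without both outlying libraries 0.02). Endothelial markers lay above WT in all 14 genes, with a median log2 change of 0.56 and 0 calls, and their summed FPKM was 79.9 and 63.4 in WT and 85.7 and 114 in ACreb3l2/AXBP1. Pituicyte and astroglial markers were above WT in 14 of 15, with Aqp4 (0.51) called higher, a median of 0.31 and summed FPKM of 542 and 476 against 512 and 625. Neither Tbx19 nor Aqp4 was called without WT replicate 2 or without ACreb3l2/AXBP1 replicate 2. The endothelial sums of the groups did not overlap and the pituicyte sums did. Endothelial sums were 90.9 and 54.6 in ACreb3l2 lobes and 95.4 and 73.1 in AXBP1 lobes. Without both outlying libraries the medians were 0.18 for endothelium and 0.10 for pituicytes. Angpt2 and Arhgef15, named among the higher genes, are known mainly from endothelium. In ACreb3l2 lobes Angpt2 changed by 1.47 from WT on the log2 scale, beside an endothelial median of -0.01. In AXBP1 lobes the values were 0.53 and 0.44. Arhgef15 changed by 0.56 in ACreb3l2 and 0.70 in AXBP1 lobes. The part of the shifts of marker lists in the lower and higher genes was not tested.

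Fibroblast and pericyte markers had a median of 0.21 and 0 calls among 13, macrophages and microglia -0.01 and 0 among 14, and erythroid cells -0.23 and 0 among 6. Without both outlying libraries these medians were -0.02, 0.03 and -0.74 in the same order. The erythroid median was 0.43 without WT replicate 1 and -0.65 without WT replicate 2. Stem cell markers had 1 higher call among 7, Sox2 (0.37), with a median of -0.30, and of 0.17 without both outlying libraries. Neuronal markers had 1 lower call among 11, Nefm (-0.95), with a median of -0.05, and of -0.20 without both outlying libraries. Neither list had a call without WT replicate 2 or without ACreb3l2/AXBP1 replicate 2. Anterior lobe markers, which would show carry-over in dissection, had a median of 0.03 and 0 calls among 11. Their summed FPKM was 5671 and 8000 in WT, 6909 and 4060 in ACreb3l2/AXBP1 and 2544 and 2740 in AXBP1 lobes, so the AXBP1 pools held the least. With library size alone the medians of macrophage and neuronal markers and of lineage factors lay at 0.14, 0.12 and 0.15, above 0. The median of all tested genes was 0.17 in that fit.

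**Figure D5:**
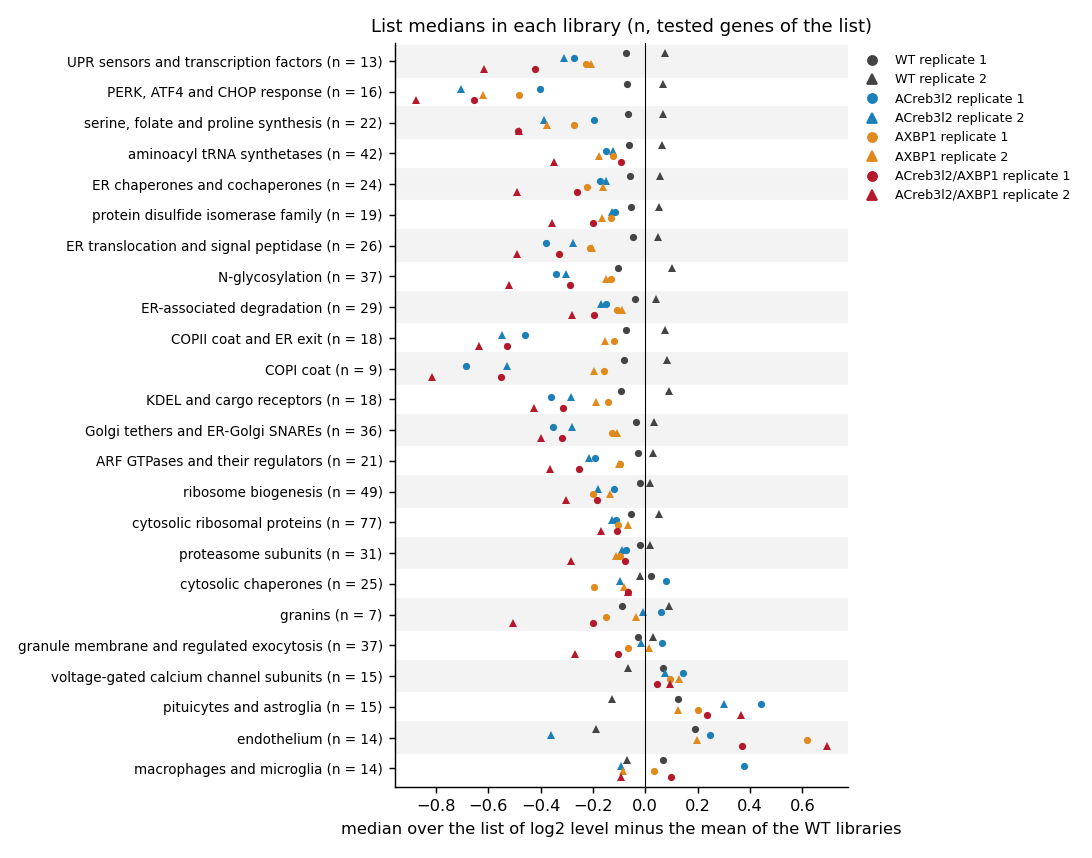
For 24 lists the median over member genes of the log2 level minus the mean of the WT libraries is drawn for each library (circles, replicate 1; triangles, replicate 2). In ACreb3l2/AXBP1 replicates 1 and 2 the COPI coat lies at -0.55 and -0.82, the COPII coat at -0.53 and -0.64 and the PERK, ATF4 and CHOP list at -0.66 and -0.88, while endothelial markers lie at 0.37 and 0.70.

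The double transgenic lobes were then compared with each single transgenic group, to ask what the second blockade adds. Against AXBP1 lobes 97 genes (0.623%) were called, 96 lower and 1 higher in ACreb3l2/AXBP1, and 25 of the 165 transport genes were among them. Sec24d, with 3972 and 3831 counts in AXBP1 lobes, had a log2 difference of -0.97 in the double transgenic ones (SE 0.11, edgeR adjusted p = 0.00566). Copz2 (1744 and 1673 counts in AXBP1, log2 difference -1.09), Kdelr2 (8717 and 8604, -0.90), Rcn3 (8647 and 9144, -1.58) and Cdr2 (2414 and 2545, -1.35) were called in the same direction. Aldh1l2 (-1.57) and Pycr1 (-2.05) were called too, and Atf4 (-0.56, edgeR adjusted p = 0.0526), Trib3 (-0.70) and Chac1 (-0.99) were not. Without AXBP1 replicate 1, or without AXBP1 replicate 2, 7 genes were called, and without ACreb3l2/AXBP1 replicate 2 there were 11.

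Against ACreb3l2 lobes 0 genes (0%) were called by edgeR, with 1112 genes at an unadjusted p under 0.05, and 41 were called by DESeq2. The transport genes as a group had a median log2 difference of -0.03 between ACreb3l2/AXBP1 and ACreb3l2 lobes, against -0.26 between ACreb3l2/AXBP1 and AXBP1 lobes and 0.00 over all tested genes in both comparisons. Their change from WT was -0.35 in ACreb3l2, -0.15 in AXBP1 and -0.42 in the double transgenic lobes, values that share the WT libraries. Against WT, edgeR called 473 genes (3.04%) in ACreb3l2 lobes, 389 lower and 84 higher, 65 of the 165 transport genes among them, and 0 genes (0%) in AXBP1 lobes, where 1554 had an unadjusted p under 0.05 and DESeq2 called 79. The interaction, a test of whether the double change departs from the 2 single changes added on the log2 scale, called 0 genes (0%) with edgeR, with 386 at an unadjusted p under 0.05, and 4 with DESeq2. A missed threshold in these comparisons does not show that the groups act alike.

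Individual genes followed different group patterns. For Sec24d, Copz2, Rcn3 and Cdr2 the log2 changes from WT were -1.05, -1.58, -1.95 and -1.71 in ACreb3l2 lobes and -0.24, -0.33, -0.26 and -0.42 in AXBP1 lobes, beside -1.21, -1.42, -1.84 and -1.77 with both transgenes. For Atf4, Trib3 and Chac1 they were -0.92, -1.62 and -1.63 in ACreb3l2 and -0.80, -1.52 and -1.48 in AXBP1, beside -1.36, -2.22 and -2.47 with both. For Lars2 the change was 0.54 with ACreb3l2, 1.67 with AXBP1 and 2.04 with both, and for Grm8 it was -0.31, 1.00 and 1.18 in the same order. None of these genes was called in the interaction, so that the differences in pattern are given as values.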

How the data were processed

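RNA from neuro-intermediate lobes, pooled 5 per library, was sequenced in 8 libraries, 2 for each of 4 genotypes. The authors trimmed paired reads, aligned them to mm10 (GRCm38) with TopHat and counted reads per gene with HTSeq, per the RNA-seq methods, while the study's software list names another aligner (STAR) without saying for which data; the deposited table holds raw read counts, and a second deposited table holds FPKM values per library. The labels describe ribosomal depletion and the methods a stranded mRNA kit, and neither the annotation release nor the strand setting of the counting is given in the sources used here.

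Genes with a mean DESeq2-normalized count above 20, the study's own rule for expressed genes, were tested: 15580 of 48526, holding 99.9% of all counts. Library totals were 28256086 to 37988912, TMM factors 0.913 to 1.10 and the common biological coefficient of variation 0.107. All 8 libraries were fitted together in edgeR 4.0.16 (quasi-likelihood test, group as the only term, R 4.3.3), with Benjamini-Hochberg adjustment over all tested genes and a threshold of 0.05. Normalized counts are scaled to the mean effective library size. DESeq2 1.42.0 and limma 3.58.1 on log2(FPKM + 1) or log2(FPKM + 0.1), other filters and scalings, and fits without each library were alternatives. The scripts were tested on simulated data. The 2 libraries of a group had distinct counts (chi-square per degree of freedom 10.7 to 48.5).

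The genes named are, among called protein-coding genes whose groups do not overlap, the 12 with the largest change in each direction at a mean normalized count of at least 200, the 10 with the largest fall and rise in mean FPKM, the 4 members of each of 46 lists (37 pathways, 9 cell types) with the lowest p, and Creb3l2, Xbp1, Pomc, Tbx19, Atf4, Atf6 and Hspa5. Further list members were named after their values were seen, and some genes that the rule takes in are not reported here. Members and lists were chosen with earlier results of these data known. Gene overlaps were read from GENCODE M21, and promoter windows are from RefSeq, build GRCm38.p6. Summaries and figures used Python 3.11.15 with pandas 2.3.3, numpy 2.4.6 and matplotlib 3.10.9.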

Additional observations from a re-analysis of the deposited data

Results flagged for a closer look

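Hist1h4n, a histone H4 gene of a near-identical family, gave normalized counts of 743 and 842 (WT), against 1023 and 1450 in ACreb3l2/AXBP1 and 669 and 707 in AXBP1 lobes, so that both double transgenic libraries lay above, and both AXBP1 libraries below, the WT libraries (log2 change with both transgenes 0.64, with AXBP1 -0.20). The ACreb3l2 lobes, at 1012 and 928 counts, also lay above both WT libraries. The direct comparison with AXBP1 gave a log2 difference of 0.85 (SE 0.15, edgeR adjusted p = 0.0461), which is also the difference of the 2 changes from WT and made it the 1 gene called higher there.

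Nefl, a neurofilament subunit, had 96 and 106 counts in WT, 58 and 84 in ACreb3l2/AXBP1 and 148 and 127 in ACreb3l2 lobes, below and above both WT libraries in turn (log2 change -0.50 with both transgenes and 0.45 with ACreb3l2; edgeR adjusted p = 0.226 against WT). It overlaps Nefm on the other strand, and the direct comparison with ACreb3l2 gave a log2 difference of -0.94 (edgeR unadjusted p = 0.00397, adjusted p = 0.688), past no threshold after adjustment. Both genes were singled out by the side of WT on which their libraries lie, a choice made over all named genes.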

How the results depend on the processing

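The count of 1566 genes against WT stayed within 1.5 times that value with DESeq2 (2074), edgeR's own expression filter (1550), RLE scaling (1583), library size alone (1650), limma on log2(FPKM + 1) (1107, of which 107 higher) or log2(FPKM + 0.1) (1120, 114 higher) and without ACreb3l2 replicate 1 (1370) or 2 (1375). It fell to 654 with the WT and ACreb3l2/AXBP1 libraries alone, to 842 and 828 without AXBP1 replicate 1 or 2, and to 49 with WT replicate 2 and ACreb3l2/AXBP1 replicate 2 both left out, and rose to 3209 with no filter on low counts (29547 genes). Leaving out each of the 4 compared libraries in turn gave 218 to 2084 calls: 355 without WT replicate 2, 218 without ACreb3l2/AXBP1 replicate 2, 2003 without WT replicate 1 and 2084 without ACreb3l2/AXBP1 replicate 1. Fits with both outlying libraries left out, without a single transgenic library, and with the crossed numbers were chosen after seeing the data.

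Against AXBP1 the 97 calls became 287 with DESeq2, 55 with library size alone, 37 and 32 with limma on log2(FPKM + 0.1) and log2(FPKM + 1), 755 with no filter, and 7 to 127 in fits that left out 1 library. Against ACreb3l2 the 0 calls became 41 with DESeq2, 1 with edgeR's filter, 513 with no filter and 1 to 11 in fits that left out 1 library, and in the interaction 4, 126 with no filter, and 0 to 2. The cause of these shifts was not tested. Of the alternatives for named genes 2620 kept the main direction and side of the threshold, 454 lost and 136 gained a call, and none reversed a called direction; of those for list medians 553 moved by less than the spread between replicates and 137 by more.

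The labels do not say whether same-numbered samples were paired. Deviations of same-numbered libraries correlated at -0.20 (WT and ACreb3l2/AXBP1) to 0.09, which cannot settle it. With the replicate block 1113 genes were called against WT and 58 against AXBP1. With the numbers of the ACreb3l2/AXBP1 libraries crossed, the block gave 2059 calls against WT. Depth limits the low genes most: Oprl1 and Nefl rest on fewer than 150 normalized counts in every WT and ACreb3l2/AXBP1 library, and how much of their error is counting error was not tested.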
